A study of Danio rerio with 6 samples.

Results

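The miRNAs described here are those of the miR-375, miR-216, miR-217 and miR-7 families, which are best known from the pancreas. They were taken by name: a row of the table was a member when its mature miRNA carried one of these family numbers with any letter or arm suffix. This gave 6 mature miRNAs (dre-miR-375, dre-miR-216a, dre-miR-216b, dre-miR-217, dre-miR-7a and dre-miR-7b, written below without the prefix for zebrafish) in 9 rows, of 230 mature miRNAs in 286 rows. Small RNA was sequenced from whole zebrafish embryos of the wild-type AB strain, pooled at 50 embryos per library. The embryos had received 1.5 ng of MO-Tbx5a, a morpholino that blocks translation of the heart and limb transcription factor Tbx5a, or 1.5 ng of the control morpholino MO-Ct. At 48 hours post fertilization (hpf) there was 1 library of each morpholino, and at 24 hpf there were 2 independent batches of each, numbered here by the replicate numbers of the labels, so no difference between morpholinos at 48 hpf has a replicate check. Tbx5a protein was not measured in the sequenced material, so the knockdown could not be checked from these libraries at either stage. At 48 hpf each name rests on the label of 1 library, so these are called the library labelled MO-Tbx5a and the library labelled MO-Ct.

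A miRNA is cut from a hairpin precursor and guides repression of the mRNAs that pair with its seed, so miRNAs that share a seed form a family. In vertebrates miR-375 is a miRNA of the endocrine pancreas, where it acts on insulin secretion and on the growth of islet cells, and in zebrafish embryos it has been located in the islet and the pituitary gland. miR-216a, miR-216b and miR-217 are miRNAs of the exocrine pancreas, the tissue that secretes digestive enzymes and that forms in the embryo after the first islet cells. miR-7 is a neuroendocrine family, found in mammalian islets and in the brain. The libraries hold no mRNA of the pancreas, so these tissues are background and not a measurement. In whole embryos, fewer cells of a type and less of a miRNA per cell cannot be told apart.

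All 9 precursors were found in the RefSeq gene table of the zebrafish assembly GRCz12tu. In that table the genes of miR-217, miR-216a and miR-216b are consecutive on chromosome 22. The 2 precursors of miR-375 lie on chromosomes 6 and 9, the 3 of miR-7a on chromosomes 25, 7 and 2, and that of miR-7b on chromosome 5.

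Values are normalized reads, the reads of a library divided by its size factor. The value of 1 read was estimated at 0.466 to 1.87 normalized reads. In such estimated reads the table, averaged by mature name, summed to 1699876 to 3148888 per library. These sums describe the table and were not checked against the read numbers of the libraries. The libraries at 48 hpf stood apart from each other in miRNAs of other tissues. The 3 neural miRNAs (miR-124 and both arms of miR-9) had summed normalized reads of 46880 in the library labelled MO-Tbx5a, against 11639 in the library labelled MO-Ct, and the 4 epidermal miRNAs of the miR-203 and miR-205 families of 26638 against 37819.

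At both stages the most abundant members were miR-216b and miR-375, whose order was opposite at the 2 stages. The lengths of mature miRNAs are nearly equal, so their reads were compared directly, although libraries do not capture all sequences equally well. At 48 hpf miR-216b ranked 47 and 59 among the 230 miRNAs by level, and miR-375 ranked 89 and 83. At 24 hpf miR-375 ranked 82 to 99 and miR-216b 94 to 119, and in each of the 4 libraries miR-375 was above miR-216b. The next level was held by miR-217 at 48 hpf and by miR-7b at 24 hpf. At 48 hpf the values of miR-7a (40.9 to 75.0) overlapped those of miR-216a (51.3 to 113) and of miR-7b (46.5 to 50.8). Those of miR-216a and miR-7a also overlapped at 24 hpf, where miR-7a ranked 197 to 215. The values of miR-7a are means over its 3 precursor rows. The rows of mir-7a-1 and mir-7a-2 had 101 and 55.5 in the libraries labelled MO-Tbx5a and MO-Ct at 48 hpf, above miR-7b in both.

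**Figure D1:**
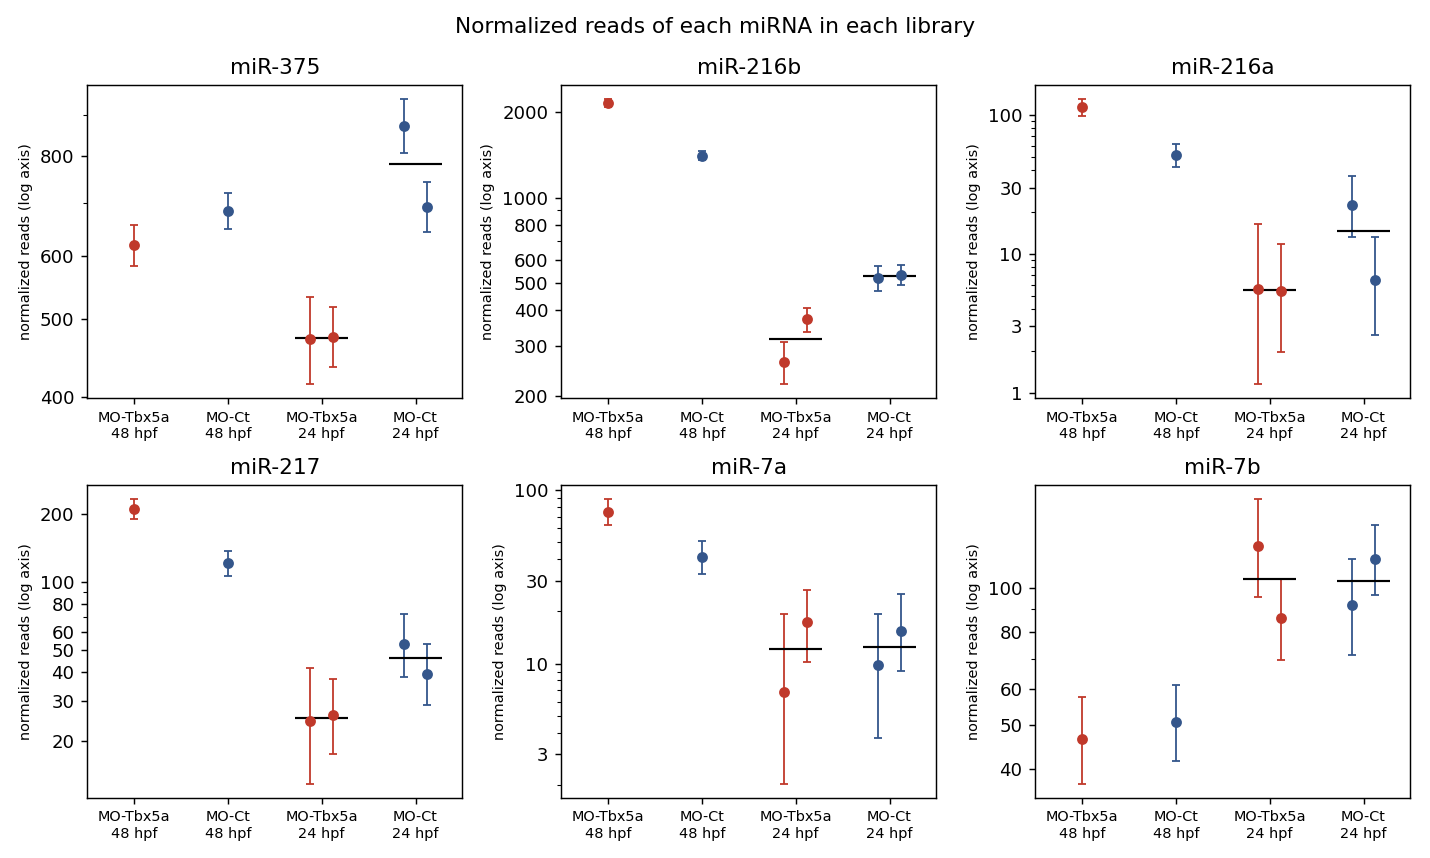
Normalized reads (log axis, scaled separately in each panel) of the 6 miRNAs in each library, in red for MO-Tbx5a and blue for MO-Ct. Whiskers are exact 95% Poisson intervals of the estimated reads and cover counting error only, and black lines are the means of the 2 batches at 24 hpf. For miR-375 and miR-7a the estimated reads are means over precursor rows, rounded to whole reads. miR-216b, miR-216a, miR-217 and miR-7a were higher in both libraries at 48 hpf than in all 4 at 24 hpf, miR-7b was lower, and miR-375 at 48 hpf lay between the MO-Tbx5a and MO-Ct libraries of 24 hpf.

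With the deposited size factors, miR-216b and miR-217, miRNAs of the exocrine pancreas, rose about 4-fold from 24 to 48 hpf. The islet miRNA miR-375 kept a level within its range at 24 hpf. Scaled by library totals, as given below, the rises were larger and miR-375 rose too, by a log2 difference of 1.49. The stages were compared over all 6 libraries in a limma fit on log2 of the normalized reads plus 2 with terms for stage and morpholino. Calls were made at p under 0.05 after Benjamini-Hochberg adjustment, named the limma adjusted p here. miR-216a passed the filter on low values only through the libraries of 48 hpf, where it was high, so it is described without a test. Of the other 5 members, 3 were called higher at 48 hpf and 1 lower, where 18.7% of all 214 miRNAs tested were called higher and 33.6% lower. The median log2 difference of all 214 miRNAs was -0.29. The same 4 lay outside the range of the other stage, 3 above and 1 below, against 25.2% and 39.7% of all miRNAs.

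miR-216b, the most abundant of the exocrine miRNAs, had 2153 and 1403 normalized reads in the libraries labelled MO-Tbx5a and MO-Ct at 48 hpf. At 24 hpf it had 262 and 372 in the batches of MO-Tbx5a and 520 and 535 in those of MO-Ct. Both libraries at 48 hpf were thus more than double any library at 24 hpf. The stage means were 1778 ± 530 (SD, n = 2) and 422 ± 130 (SD, n = 4), a log2 difference of 2.09 (SE 0.33, limma adjusted p = 0.00288).

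miR-217, which lies beside the miR-216 genes, had a lower level. It had 210 and 121 normalized reads in the libraries labelled MO-Tbx5a and MO-Ct at 48 hpf, against 24.3 and 25.97 in MO-Tbx5a and 53.2 and 39.5 in MO-Ct at 24 hpf. The groups did not overlap, and the log2 difference was 2.16 (SE 0.42, limma adjusted p = 0.00534).

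miR-216a was the rarest of the 3 and its value at 24 hpf rested on few reads. It had 113 and 51.3 normalized reads in the libraries labelled MO-Tbx5a and MO-Ct at 48 hpf, against 5.61 and 5.37 in MO-Tbx5a and 22.6 and 6.43 in MO-Ct at 24 hpf. The values at 24 hpf stand for an estimated 3, 6, 17 and 7 reads. The exact 95% Poisson interval of the lowest in reads ran from 1.16 to 16.4 normalized reads. It reached 10 normalized reads in only 1 of the 4 libraries at 24 hpf. The log2 difference was 2.92, which is a description only.

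The size of the rise within each morpholino rests on the labels of the single libraries at 48 hpf. Between the libraries labelled MO-Tbx5a the log2 difference from 24 to 48 hpf was 2.78 for miR-216b, 2.97 for miR-217, 3.94 for miR-216a and 2.56 for miR-7a. Between the libraries labelled MO-Ct it was 1.41, 1.36, 1.89 and 1.59 for the same miRNAs. This gap between the morpholinos was not called for miR-7a and not tested for miR-216a. With the labels at 48 hpf exchanged, the rise in MO-Tbx5a minus that in MO-Ct was 0.14 for miR-216b and 0.029 for miR-217. It was then -0.17 for miR-216a and -0.72 for miR-7a. The calls of miR-216b, miR-217 and miR-7a held without any one library. They also held in each morpholino alone, where 1 library at 48 hpf is compared with 2 at 24 hpf and is assumed to vary as those do. Scaled by library totals, the stage difference over all 6 libraries was 3.49 for miR-216b, 3.52 for miR-217, 4.19 for miR-216a and 3.36 for miR-7a, with the median of all miRNAs at 1.11.

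miR-375 was the member that did not pass the test of stage. It had 619 and 684 normalized reads in the libraries labelled MO-Tbx5a and MO-Ct at 48 hpf, against 473 and 475 in MO-Tbx5a and 874 and 691 in MO-Ct at 24 hpf. The values at 48 hpf lay inside the range at 24 hpf. The log2 difference was 0.10 (95% interval -0.42 to 0.62, limma adjusted p = 0.722), with 0.38 between the libraries labelled MO-Tbx5a and -0.18 between those labelled MO-Ct. This result depended on the scaling of the libraries: scaled by library totals and not by the deposited size factors, the difference was 1.49 and was called (limma adjusted p = 0.00292), and the median of all miRNAs moved by 1.40.

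Relative to the median of all miRNAs, the members moved little between scalings. Above that median miR-216b stood at 2.38 with the deposited factors, 2.37 with median-ratio factors and 2.37 with library totals, and miR-375 at 0.39, 0.38 and 0.38. The order of the members was the same under each of the 3 scalings, from miR-216a at 3.21, 3.16 and 3.07 down to miR-7b at -0.76, -0.79 and -0.81.

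The family members miR-7a and miR-7b went in opposite directions between the stages. miR-7a had 75.0 and 40.9 normalized reads in the libraries labelled MO-Tbx5a and MO-Ct at 48 hpf, against 6.86 and 17.3 in MO-Tbx5a and 9.75 and 15.3 in MO-Ct at 24 hpf. Its log2 difference was 2.07 (SE 0.49, limma adjusted p = 0.0102), and no library of 24 hpf reached either of 48 hpf.

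miR-7b had 46.5 and 50.8 normalized reads in the libraries labelled MO-Tbx5a and MO-Ct at 48 hpf, against 123.5 and 86.0 in MO-Tbx5a and 91.8 and 116 in MO-Ct at 24 hpf. Its log2 difference was -1.05 (SE 0.29, limma adjusted p = 0.0189), and the stages did not overlap. The fall of miR-7b was less firm than the rise of miR-7a. Its call was lost without MO-Tbx5a replicate 1 at 24 hpf (limma adjusted p = 0.0569), without MO-Ct replicate 2 at 24 hpf (limma adjusted p = 0.0638) in the libraries labelled MO-Tbx5a alone (limma adjusted p = 0.0512) and with median-ratio size factors (limma adjusted p = 0.0597). With library totals its sign turned, at a log2 difference of 0.31 (limma adjusted p = 0.343). The reads were mapped to precursors with some mismatch allowed, and how reads are split between miR-7a and miR-7b, which are near-identical in sequence, was not tested.

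**Figure D2:**
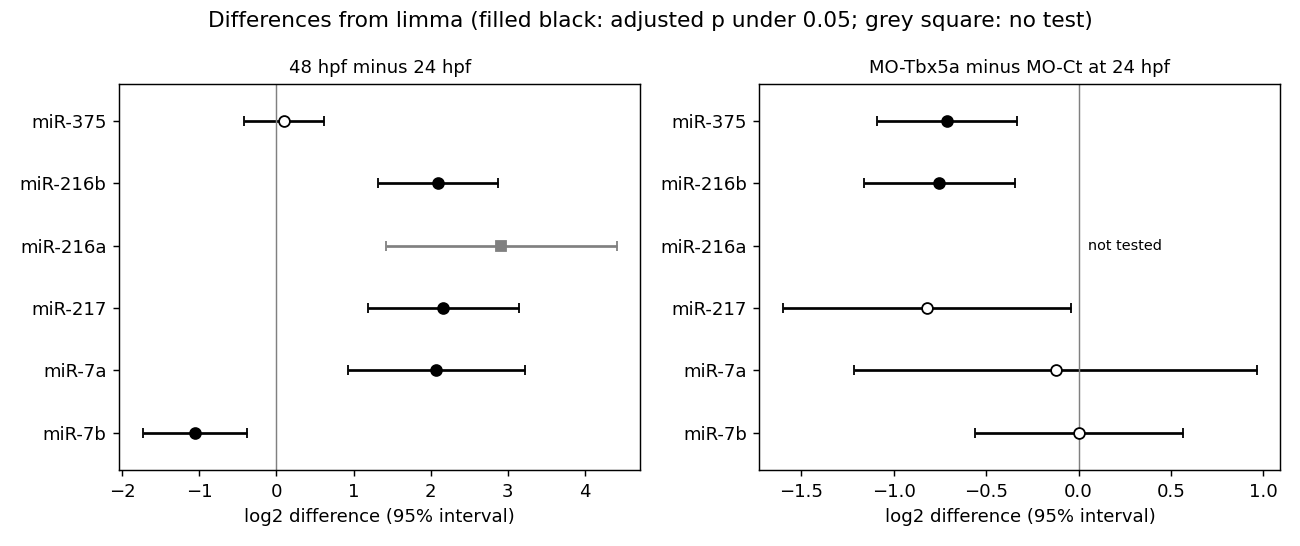
log2 differences of the 6 miRNAs with 95% intervals from limma, 48 against 24 hpf over all 6 libraries (left) and MO-Tbx5a against MO-Ct at 24 hpf (right), with filled points where the limma adjusted p was under 0.05 and a grey square for miR-216a, which is described without a test. The interval drawn for miR-216a is not to be read as a test, as it passed the filter only through the libraries of 48 hpf. With stage, miR-216b, miR-216a, miR-217 and miR-7a lay above 2 and miR-7b at -1.05, and with morpholino miR-375 at -0.71 and miR-216b at -0.75 were called.

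The deposited table reads miR-7a through 3 precursors, and these gave the widest spread of the 37 mature miRNAs with several rows: the sum over the libraries of the highest row was 4.50 times that of the lowest, where the next widest, miR-99, had 1.23. The rows of mir-7a-1 and mir-7a-2 held the same value in 5 of 6 libraries, 101 and 55.5 normalized reads in the libraries labelled MO-Tbx5a and MO-Ct at 48 hpf, 9.36 and 22.4 in the MO-Tbx5a batches at 24 hpf and 13.3 in MO-Ct replicate 1. In MO-Ct replicate 2 they had 22.1 and 21.1, a difference of 1 read. Such rows are in effect the same reads and do not show which of the 2 precursors was transcribed.

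The row of mir-7a-3 held fewer reads. It had 23.5 and 11.7 normalized reads in the libraries labelled MO-Tbx5a and MO-Ct at 48 hpf, against 1.87 and 7.17 in MO-Tbx5a and 2.66 and 2.76 in MO-Ct at 24 hpf. These stand for an estimated 43 and 25 reads at 48 hpf and 1, 8, 2 and 3 reads at 24 hpf. With each row tested separately, the stage difference was 2.104 for mir-7a-1 (limma adjusted p = 0.0114) and 2.12 for mir-7a-2 (limma adjusted p = 0.0106). For mir-7a-3, which reached 10 normalized reads only in the libraries of 48 hpf and is given without a test, it was 1.82. The rows of miR-375 were close to each other, with stage differences of 0.10 and 0.10 (limma adjusted p = 0.707 and 0.730).

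**Figure D3:**
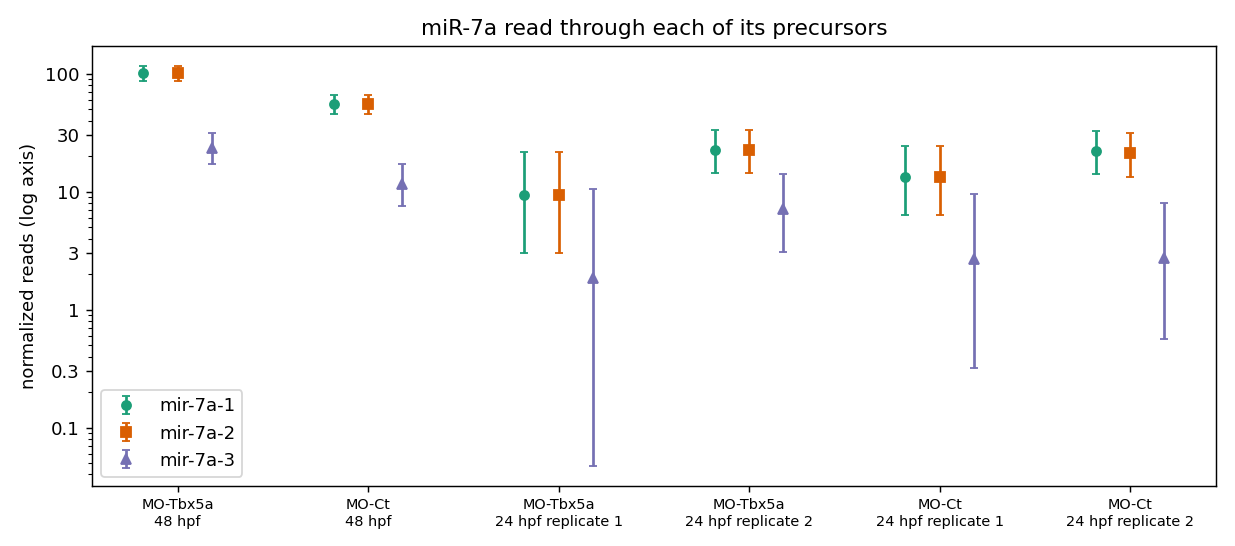
Normalized reads (log axis) of miR-7a in the rows of its 3 precursors, by library, with exact 95% Poisson intervals of the estimated reads. mir-7a-1 and mir-7a-2 coincide except in MO-Ct replicate 2, and mir-7a-3 lies below them in all 6 libraries, down to 1 read in MO-Tbx5a replicate 1 at 24 hpf.

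Ratios between members within a library are free of its scaling. The ratio of miR-216b to miR-375, an exocrine over an islet miRNA, was 3.48 and 2.05 in the libraries labelled MO-Tbx5a and MO-Ct at 48 hpf, against 0.554 and 0.782 in MO-Tbx5a and 0.595 and 0.774 in MO-Ct at 24 hpf. The stages did not overlap, and at 24 hpf the morpholinos did. With miR-7a averaged over its precursor rows, the ratio of miR-7a to miR-7b was 1.61 and 0.804 at 48 hpf. It was 0.0556 and 0.201 in MO-Tbx5a and 0.106 and 0.132 in MO-Ct at 24 hpf. On log2 of the values plus 2, which is not free of the scaling, this ratio differed by 3.13 between the stages. The ratio of miR-216b to its neighbour miR-217 lay between 9.78 and 14.3 in all 6 libraries, with 10.2 and 11.6 at 48 hpf inside the range at 24 hpf.

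The 6 ratios were chosen after the values had been seen, and were tested on log2 of the values plus 2. In an exact two-sided permutation test over the 6 libraries, miR-216b to miR-375, miR-7a to miR-7b and miR-375 to miR-7b each gave p = 0.133, the smallest that 2 libraries against 4 allow, and p = 0.267 adjusted over the 6 ratios. The ratio of miR-216b to miR-217 gave p = 0.8 in the same exact permutation test. No ratio could therefore pass a threshold of 0.05 in this design, so the test decides nothing on any of them.

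**Figure D4:**
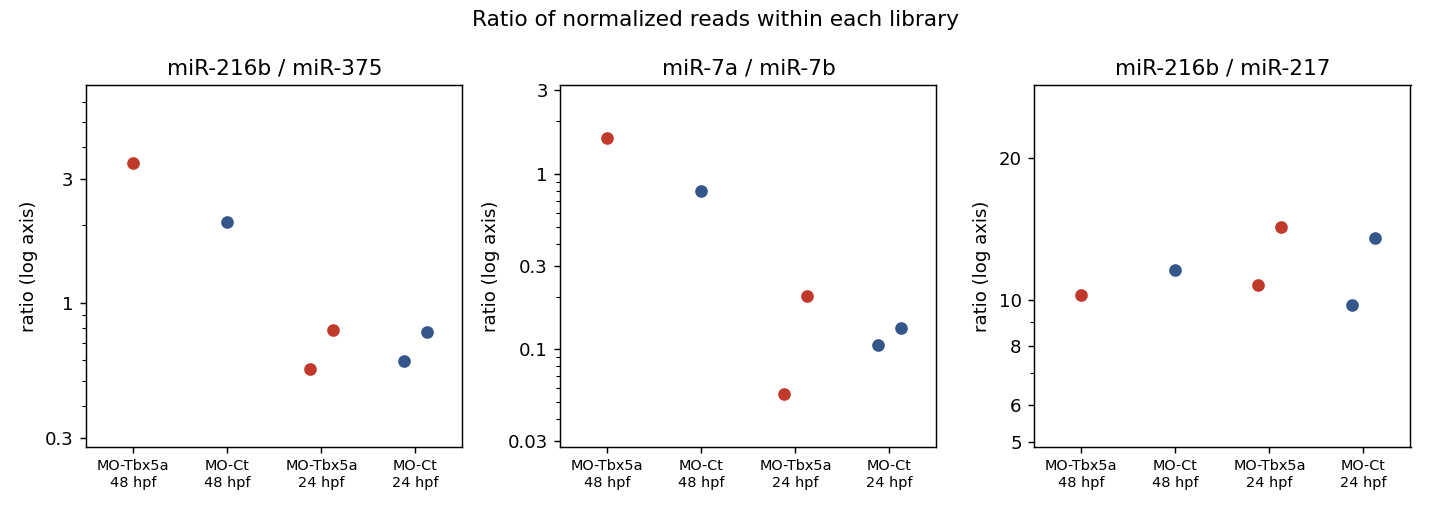
Ratio of normalized reads of 2 miRNAs within each library (log axis, scaled separately in each panel), in red for MO-Tbx5a and blue for MO-Ct. miR-216b to miR-375 was at least 2.05 at 48 hpf and at most 0.782 at 24 hpf, miR-7a to miR-7b at least 0.804 and at most 0.201, and miR-216b to miR-217 stayed between 9.78 and 14.3.

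At 24 hpf the knockdown went with lower levels of miR-375 and miR-216b, each at about 0.6 of the level in MO-Ct. The batches of MO-Tbx5a and MO-Ct were compared by limma over 210 miRNAs, those that reached 10 normalized reads in 2 or more of these 4 libraries. Of the 5 members tested, 2 were called, both lower, where 4.29% of all miRNAs tested were called lower and 3.33% higher. miR-375, miR-216b and miR-217 did not overlap between the morpholinos, all 3 lower in MO-Tbx5a, against 29.5% of all miRNAs.

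miR-375 averaged 474 ± 1.83 normalized reads in MO-Tbx5a and 782 ± 129 in MO-Ct (SD, n = 2 each). The 2 MO-Tbx5a batches were nearly equal, and the MO-Ct batches differed by more than the counting error of either. The log2 difference was -0.71 (SE 0.19, limma adjusted p = 0.00526). The value kept its sign without each library, but the call was lost without any one of the 4. The log2 difference was then -0.71 without either MO-Tbx5a batch (limma adjusted p = 0.181 without replicate 1 and 0.0707 without replicate 2), -0.54 without MO-Ct replicate 1 (limma adjusted p = 0.412) and -0.88 without MO-Ct replicate 2 (limma adjusted p = 0.272).

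miR-216b averaged 317 ± 77.6 normalized reads in MO-Tbx5a and 527 ± 10.5 in MO-Ct (SD, n = 2 each). Here the MO-Ct batches were nearly equal and the MO-Tbx5a batches stood apart. The log2 difference was -0.75 (SE 0.21, limma adjusted p = 0.00609). Its call held without MO-Tbx5a replicate 2, at -1.003 (limma adjusted p = 0.00657), and was lost without MO-Tbx5a replicate 1, at -0.50 (limma adjusted p = 0.529), without MO-Ct replicate 1, at -0.77 (limma adjusted p = 0.456) and without MO-Ct replicate 2, at -0.73 (limma adjusted p = 0.451). Both calls, of miR-375 and miR-216b, were also lost with library totals and without the variance trend.

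miR-217 averaged 25.2 ± 1.16 normalized reads in MO-Tbx5a and 46.4 ± 9.67 in MO-Ct (SD, n = 2 each). Its log2 difference of -0.82 was as large as that of miR-216b, but its error was wider (SE 0.40) and it did not pass the test (limma adjusted p = 0.204). Its values rested on an estimated 13 and 29 reads in MO-Tbx5a and 40 and 43 in MO-Ct. miR-216a, with 5.49 ± 0.170 in MO-Tbx5a and 14.5 ± 11.4 in MO-Ct (SD, n = 2 each), did not reach the filter and was not tested.

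No difference was detectable for the miR-7 family at 24 hpf. miR-7a averaged 12.1 ± 7.39 normalized reads in MO-Tbx5a and 12.5 ± 3.93 in MO-Ct (SD, n = 2 each), and its log2 difference of -0.12 had a 95% interval of -1.21 to 0.96 (limma adjusted p = 0.902). miR-7b averaged 105 ± 26.5 in MO-Tbx5a and 104 ± 16.98 in MO-Ct (SD, n = 2 each), and its log2 difference of 0.00 had a 95% interval of -0.56 to 0.56 (limma adjusted p = 1.00). The libraries of the morpholinos overlapped for both. A difference of up to about 1.5-fold in miR-7b, and of more than 2-fold in miR-7a, lies inside these intervals.

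Lists of miRNAs of other tissues were measured in the same libraries. At 24 hpf the neural miRNAs summed to 2049 and 2520 normalized reads in MO-Tbx5a, against 2969 and 3153 in MO-Ct, and the 7 muscle miRNAs (miR-1, miR-133 and miR-206) to 7184 and 6738 against 8635 and 9381. No member of either list was called by limma at 24 hpf (1 of the neural and 3 of the muscle miRNAs had an unadjusted p under 0.05), though all 3 neural and all 7 muscle miRNAs had a log2 difference below 0. The 4 miRNAs of liver and gut (miR-122, miR-192 and miR-194), organs that form from endoderm as the pancreas does, summed to 6751 and 6751 in MO-Tbx5a, against 6814 and 6408 in MO-Ct. Only 3 of them passed the filter, without miR-122. All 3 had a log2 difference above 0, and none was called. The 4 epidermal miRNAs summed to 59959 and 56185 in MO-Tbx5a, against 64960 and 57618 in MO-Ct, with 3 of 4 log2 differences above 0, and the 2 blood miRNAs (miR-451 and miR-144) to 73.0 and 60.9 against 94.4 and 83.6, with both below 0. The part of other tissues in the values of miR-375 and miR-216b was not tested.

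At 48 hpf the exocrine miRNAs and miR-7a had higher values in the library labelled MO-Tbx5a, and miR-375 and miR-7b had nearly equal values. With 1 library each there is no test. Each ratio was held against a limit taken from batches of 1 morpholino at 24 hpf, the 99th percentile of their absolute log2 ratios over the 100 miRNAs of closest level per morpholino. None of the 6 members passed this limit, where 21.5% of all 219 miRNAs did. A ratio within the limit does not show that the libraries were alike.

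miR-216b came nearest to its limit, with a log2 ratio of 0.62 against 0.71. The log2 ratio was 1.11 for miR-216a, 0.79 for miR-217 and 0.84 for miR-7a, against limits of 1.74, 1.74 and 1.79. For miR-375 it was -0.14 against 0.74 and for miR-7b -0.12 against 1.79. With median-ratio size factors miR-216b passed its limit, at 0.74, and with the 95th percentile as the limit miR-216a and miR-216b did.

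The difference between the morpholinos was then compared between the stages, as the difference at 48 hpf minus that at 24 hpf. This interaction was fitted by limma over 4 group means. It takes its error from the batches of 24 hpf alone, through the variance trend over all miRNAs. The single libraries of 48 hpf are thus assumed to vary as those batches do, and their own spread is not measured. Of the members tested, 2 were called above 0, both exocrine miRNAs, where 15.9% of the 214 miRNAs tested were called above 0 and 17.3% below. The interaction was 1.37 for miR-216b (SE 0.33, limma adjusted p = 0.000228) and 1.61 for miR-217 (SE 0.59, limma adjusted p = 0.0247). For miR-216a, which passed the filter only through the libraries of 48 hpf and is given without a test, it was 2.06. For miR-216b the log2 difference between MO-Tbx5a and MO-Ct was 0.62 at 48 hpf and -0.75 at 24 hpf. Both calls were lost without either MO-Ct batch of 24 hpf, at 1.39 for miR-216b and 1.40 for miR-217 without replicate 1 (limma adjusted p = 0.145 and 0.139) and at 1.35 and 1.81 without replicate 2 (limma adjusted p = 0.146 and 0.0915). Without the variance trend the call of miR-216b was lost (limma adjusted p = 0.0768) and that of miR-217 was kept (limma adjusted p = 0.0444).

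The interaction was not called for miR-375, at 0.57 (SE 0.33, limma adjusted p = 0.197), for miR-7a, at 0.97 (SE 0.93, limma adjusted p = 0.445), or for miR-7b, at -0.12 (SE 0.52, limma adjusted p = 0.871). Each of these values rests on the names of the 2 libraries at 48 hpf. With those names exchanged, the interaction was 0.14 for miR-216b (limma adjusted p = 0.843), 0.029 for miR-217 (limma adjusted p = 0.981) and 0.85 for miR-375 (limma adjusted p = 0.0426). The summed neural miRNAs, given above, were also higher at 48 hpf in the library labelled MO-Tbx5a. In the same fit all 3 neural and both blood miRNAs were called above 0, and 3 of the 4 epidermal miRNAs below 0. Their part in the interaction of the exocrine miRNAs was not tested. The stage differences of the members are the same with the names exchanged.

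The miRNAs whose profile over the 6 libraries was most like that of a member were found by the root mean square distance of the log2 values after centring, among 213 other miRNAs. miR-216b and miR-217 were each the nearest to the other, at a distance of 0.19, where the median distance of all miRNAs was 1.25 from miR-216b and 1.30 from miR-217. After miR-217, the nearest to miR-216b were miR-214 at 0.22 and miR-181c at 0.24, and after miR-216b the nearest to miR-217 were miR-181c at 0.21 and miR-125b at 0.26. miR-216a, from the same stretch of chromosome 22, was at 0.50 from miR-217 and at 0.64 from miR-216b. Its own nearest was miR-129-5p at 0.46, followed by miR-217 and the neural miR-9-3p, both at 0.50. With few reads at 24 hpf, the profile of miR-216a carries more counting error than those of its neighbours.

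The profile of miR-375 was unlike those of the exocrine miRNAs. Its nearest were miR-10d-3p at 0.21, miR-133b-3p at 0.22 and miR-2184 at 0.25, and miR-216b was number 167 of 213 at 0.98. miR-7a was nearest to miR-145 at 0.27, miR-187 at 0.34 and miR-216b at 0.35, and miR-7b to miR-30e-5p at 0.18, miR-16a at 0.18 and miR-126b-3p at 0.19. miR-7a and miR-7b were 1.57 apart, which placed miR-7b at number 167 of 213 from miR-7a. These distances describe 6 libraries that share their scaling and depth and carry no test.

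Other miRNAs known from mammalian islets or pancreas (26 in the table, among them the miR-200, miR-30, miR-148, miR-204, miR-9 and miR-124 families) were called in both directions with stage: 4 of 25 tested were called higher and 8 lower by limma, near the 18.7% and 33.6% of all miRNAs, with a median log2 difference of -0.15, against -0.29 for all miRNAs. The 4 higher were miR-9-5p at 3.22, miR-9-3p at 2.91, miR-124 at 1.44 and miR-204 at 1.09, of which the first 3 are also neural miRNAs. The 8 lower were miR-148, miR-200a, miR-200b, miR-24, miR-30c, miR-30d and both arms of miR-30e, at -0.55 to -1.42.

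With the knockdown at 24 hpf, 2 of 24 islet or pancreas miRNAs tested were called by limma, both lower, where 4.29% of all miRNAs were called lower, with a median of -0.08 against -0.01 for all miRNAs. These were miR-30a at -1.21 (limma adjusted p = 1.36e-10) and miR-204, known from the eye and from beta cells, at -0.65 (limma adjusted p = 0.00256). Both calls were lost with library totals, without the variance trend and without either MO-Ct replicate. The list is of wide expression: many of its miRNAs are also known from epithelia, brain or eye. The 4 miRNAs of liver and gut had a summed level of 6014 and 5018 normalized reads in the libraries labelled MO-Tbx5a and MO-Ct at 48 hpf, against 6408 to 6814 at 24 hpf. The liver miRNA miR-122 passed the filter for stage only through the libraries of 48 hpf. It is given without a test, at a log2 difference of 1.69. The other 3 were not called by limma with stage, at -0.10 for miR-194a, -0.29 for miR-192 and -0.69 for miR-194b.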

How the data were processed

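The authors converted the reads with CASAVA 1.8 per the labels, trimmed adapters, mapped the reads to zebrafish miRBase precursors with miRExpress and divided the read numbers of each library by its DESeq size factor. The deposited table thus holds a signal (normalized reads), and no genome build is named for it. They are whole multiples of 1 step per library (99.6% to 100% of values within 0.1 reads). This step was used to estimate reads, their sums and their Poisson intervals, and for the simulated data, but in no test of the members. A planned test on counts was not run.

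Rows were averaged by mature name. limma 3.58.1 in R 4.3.3 was run with its variance trend on log2(value + 2). It took miRNAs with at least 10 normalized reads in 2 or more libraries of the comparison. Benjamini-Hochberg adjustment was over all miRNAs tested. The filter was 2 of 4 libraries for the morpholinos at 24 hpf and 2 of 6 for the stages and the interaction. The pseudocount understates changes of low miRNAs. Tests are two-sided. They were also run on simulated data in which all miRNAs had the same spread and the libraries of both stages varied alike. Such data could not check whether the libraries of 48 hpf vary as those of 24 hpf do. Python 3.11.15, numpy 2.4.6, pandas 2.3.3 and scipy 1.17.1 were used for the rest. The limit at 48 hpf assumes that libraries vary as the batches at 24 hpf did.

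Groups were taken from the titles of the samples, which number the replicates but do not say what replicates of equal number have in common. Libraries are separate batches of embryos, and limma p-values rest on the spread between them, pooled over all miRNAs in the variance trend. The weight of that trend, in prior degrees of freedom, was 267 for the morpholinos at 24 hpf, 4.09 for stage and infinite for the interaction. The spread between the batches of a miRNA itself thus had almost no part in its error at 24 hpf, and none in that of the interaction. All members, every row of miR-7a and the 3 nearest profiles of each member are named. So are the miRNAs of the islet or pancreas list that were called with stage or with the knockdown at 24 hpf. Other calls within the lists are not all named. Ratios between members were added after the values were seen. The members and lists were chosen with earlier results of these data known. Alternatives were other scalings, pseudocounts, filters and variance models, separate precursor rows, exchanged labels at 48 hpf and leaving out each library. The microarray and PCR data were not analysed here, and mature sequences were not used.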

Additional observations from a re-analysis of the deposited data

Results flagged for a closer look

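The difference between the morpholinos was fitted separately at each stage, and limma called the change in it between the stages for 2 members. For miR-216b the log2 difference at 48 hpf minus that at 24 hpf was 1.37, and for miR-217 it was 1.61. Both rest on 1 library per morpholino at 48 hpf, whose own spread is not measured, and on the labels of those libraries. Both calls were lost without either MO-Ct replicate of 24 hpf and with the labels at 48 hpf exchanged.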

How the results depend on the processing

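The stage rises of miR-216b, miR-217 and miR-7a were called under every alternative fitted. Over all members, 234 values kept their direction and their side of the threshold or limit, 22 fell short of it, 7 newly passed it and 17 changed sign. These counts include values given here without a test, those of miR-216a and mir-7a-3 and the ratios at 48 hpf. A value that newly passed is thus not always a limma call. At 24 hpf the number of miRNAs called by limma was 16, against 0 with library totals (38 had p under 0.05 before adjustment), 1 without the variance trend and 0 to 14 leaving out each library (0 without either MO-Ct replicate, with 25 at an unadjusted p under 0.05). For the interaction it was 71, against 47 with library totals, 30 without the trend and 15 to 58 leaving out each library of 24 hpf. It could not be fitted without a library of 48 hpf. At 48 hpf 47 miRNAs passed the limit, and 89 with the 95th percentile. With stage, 40 were called higher and 72 lower, against 53 and 50 with median-ratio factors and 154 and 12 with library totals, which moved the median by 0.32 and 1.40.

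The values that changed sign were these. At 24 hpf miR-7b was -0.069 with median-ratio factors and -0.038 with library totals, and leaving out each library gave -0.26 to 0.26 for miR-7b. miR-7a was 0.44 without MO-Tbx5a replicate 1 and -0.40 without MO-Ct replicate 1, and fell under the filter without either of the other libraries. With stage miR-7b was 0.31 with library totals, and miR-375 was -0.18 in MO-Ct alone and -0.18 to 0.38 leaving out each library. The interaction of miR-7b was 0.066 with median-ratio factors, 0.068 with library totals, -0.38 to 0.13 leaving out each library and 0.12 with the labels at 48 hpf exchanged, when miR-216a was -0.17 and miR-7a -0.72. At 48 hpf, library totals gave 0.015 for miR-375 and 0.030 for miR-7b.

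With the replicate number as a replicate block at 24 hpf, limma called 39 miRNAs, 12 higher and 27 lower, and miR-375 and miR-216b remained called (adjusted p = 2.96e-05 and 0.000138). The batch differences of the 2 morpholinos correlated at r = 0.28 across 210 miRNAs, but nothing in the labels pairs the replicates.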
